A study of Mus musculus with 12 samples.

Results

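The Notch receptors and ligands of the mouse liver were followed here through 10 genes: the receptors Notch1, Notch2, Notch3 and Notch4, the ligands Jag1, Jag2, Dll1 and Dll4, the DNA-binding protein Rbpj and the feedback regulator Nrarp. Members were all non-control probes of a one-colour Agilent array that carry 1 of these gene names or an older synonym. Rbpj was found under its older name Rbpsuh. This gave 14 probes for 10 of the 27824 genes and unnamed probes on the array. Of these 27824, 18708 were bright enough to be tested, and all 10 Notch genes were among them.

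RNA from the livers of 12 mice was hybridised, with 1 mouse on each array. The mice were C57BL/6 males, 8 to 10 weeks old. The 4 groups of 3 mice were HESKOL mice given dexamethasone, untreated HESKOL mice, wild-type mice given dexamethasone and untreated wild-type mice. Every mouse, untreated ones included, had been adrenalectomized, so its own glucocorticoids were removed. Dexamethasone, a synthetic glucocorticoid, was injected at 1 mg/kg into the peritoneum, and livers were taken after 6 h. The labels do not describe a vehicle injection, and they do not spell out HESKOL, its allele or the promoter of any Cre, although the series title names Hes1.

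Notch receptors are cut when a ligand on a neighbouring cell binds and pulls on them. The freed inner part then moves to the nucleus and joins Rbpj, which turns from a repressor of Hes and Hey genes into an activator. In liver, Jag1 and Notch2 are best known for building the bile ducts, and Notch1, Notch4 and Dll4 for their part in the endothelium. Notch3 is known from mural cells around vessels, and Nrarp is a Notch target that dampens the signal.

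The array reads each of these genes through 1 or a few stretches of 60 bases, so the first 30 bases of the probes that the results turn on are printed as the array files give them. Their positions are those of the whole probe on the mm7 build, and no gene model of that build was used here to say whether a probe lies in a coding exon or a UTR. The single Notch4 probe lies at chr17:32669395-32669454 on the plus strand. The Notch1 probes lie side by side at chr2:26466563-26466621 and chr2:26466621-26466680 on the minus strand. The Notch2 probes lie at chr3:98021215-98021274, chr3:98020144-98020203 and chr3:98018506-98018565 on the plus strand.
Notch4: gttgatttcgagaatccctaaactctggaa
Notch1, brighter probe: ggcactaggggaaaaacatatctgttccaa
Notch1, dimmer probe: tatgtacttttattttccacagaaacactg
Notch2, brightest probe: ccacttgaagtcttgcatagaaatgaacca
Notch2, second probe: tctgtggtaatctaggatgatagttttctc
Notch2, dimmest probe: cccagagtctcctgaccaatggtcaagctc

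Values are given as log2 signal, which is the log2 of the processed signal relative to the array's own 75th percentile. A value of 0 therefore sits at that percentile, and values of different probes are not comparable with each other. A change is the difference of 2 group means on this scale, tested with limma over all 18708 genes, and passed where its Benjamini-Hochberg adjusted p was under 0.05.

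Between 61.5% and 71.9% of the probes on an array were well above background, and the 75th percentile lay between 897 and 1614 intensity units. Hes1, the gene in the series title, had log2 signals of -3.85 to -3.02 in HESKOL livers after dexamethasone, against -2.92 to -1.16 in wild-type livers after dexamethasone. Without treatment Hes1 lay between -3.09 and -2.40 in HESKOL livers, against -1.90 to -1.22 in wild-type livers. Its mean difference between genotypes over both treatments was -1.11 (SE 0.30, adjusted p = 0.25), and the position of its probe relative to any deleted part is not known. Of 12 known glucocorticoid receptor targets, 7 passed upwards with dexamethasone in HESKOL liver and 4 in wild-type liver, and none passed downwards. Of all genes, 7.83% and 0.198% passed in either direction. The median changes of the 12 were 1.92 and 1.79, with 12 and 11 of them higher. For the difference of the responses 0 of them passed.

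The arrays sat on 3 slides of 4. The first held the untreated wild-type livers and untreated HESKOL liver 1, the second held untreated HESKOL livers 2 and 3 and treated wild-type livers 1 and 2, and the third held treated wild-type liver 3 and the treated HESKOL livers. Within a genotype, treated and untreated livers never shared a slide. Treated wild-type liver 1 also stood apart from its group. Its summed level of 13 immediate early genes was 679 times the array's 75th percentile, against 76.3 and 133 in the other treated wild-type livers. Its Fkbp5, a glucocorticoid target, was at -0.998, against 3.45 and 3.98 in those livers and -0.65 to 1.19 in untreated wild-type livers. Its Cdkn1a, also in the list of glucocorticoid targets, was at 2.01, against 3.49 and 3.25 in the other treated wild-type livers and -4.35 to -2.61 in untreated ones. Leaving this liver out raised the number of genes that passed for dexamethasone in wild-type liver to 1123, against 37 with it.

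Notch4, a receptor known mainly from endothelial cells, was the only one of the 10 genes that passed the test in any comparison. Its log2 signal was 0.89, 0.53 and 0.37 in the HESKOL livers given dexamethasone, against -0.83, -0.69 and -1.29 in untreated HESKOL livers. All treated HESKOL livers were above all untreated ones, and above every other liver of the study. Notch4 rose by 1.53 on the log2 scale (SE 0.28, 95% interval 0.91 to 2.15, 2.88-fold, n = 3 each, limma adjusted p = 0.011). Across all genes, 7.83% passed this comparison and 3.63% passed it upwards. The processed signal before any scaling was 1409 to 2615 in treated HESKOL livers, against 387 to 1004 in untreated ones.

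In wild-type liver Notch4 was at -0.76, -0.23 and 0.26 after dexamethasone, against -0.79, -1.09 and -1.06 without it. Every treated wild-type liver was above every untreated one, but treated liver 1 was above the highest untreated liver by little. The mean difference was 0.74 (SE 0.28, 95% interval 0.12 to 1.36, 1.67-fold, limma adjusted p = 0.34), which did not pass, and 0.198% of all genes passed in this comparison. Without treated wild-type liver 1 it was 1.00 (limma adjusted p = 0.053). An exact two-sided permutation test over the livers gave p = 0.1 in each genotype, the smallest value that 3 against 3 allows.

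Averaged over both genotypes, Notch4 rose with dexamethasone by 1.13 (SE 0.20, 95% interval 0.70 to 1.57, 2.19-fold, limma adjusted p = 0.0071). In this comparison 11.8% of all genes passed, 5.3% of them upwards as a share of all genes tested. The difference between the dexamethasone changes of the genotypes was 0.79 for Notch4 (SE 0.40, 95% interval -0.08 to 1.66, limma adjusted p = 0.78). A larger response in HESKOL liver was therefore not shown.

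After dexamethasone, Notch4 was at 0.59 ± 0.27 in HESKOL livers and -0.24 ± 0.51 in wild-type livers (SD, n = 3 each). These groups did not overlap, and the mean difference was 0.84 (SE 0.28, limma adjusted p = 0.18). Without treatment the means were -0.93 ± 0.32 in HESKOL livers and -0.98 ± 0.16 in wild-type livers, a difference of 0.05 (SE 0.28, limma adjusted p = 1.00). In order of level, treated HESKOL livers came first and treated wild-type livers second, and the untreated groups, which overlapped, came last.

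Slide and group moved together in these values. On the third slide, the treated HESKOL livers had 0.89, 0.53 and 0.37, against 0.26 in treated wild-type liver 3, the highest of its group. On the second slide, treated wild-type livers 1 and 2 had -0.76 and -0.23, against -0.69 and -1.29 in untreated HESKOL livers 2 and 3. With slide as a fixed block in the fit, the Notch4 change was 0.83 in HESKOL liver (SE 0.48, limma adjusted p = 0.84) and 0.65 in wild-type liver (SE 0.48, limma adjusted p = 1.00). In that limma fit 0 of the 18708 genes passed either comparison, and 1199 had an unadjusted p under 0.05 in HESKOL liver and 610 in wild-type liver. The part of the slide in the Notch4 result cannot be told apart from that of treatment in either genotype.

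**Figure D1:**
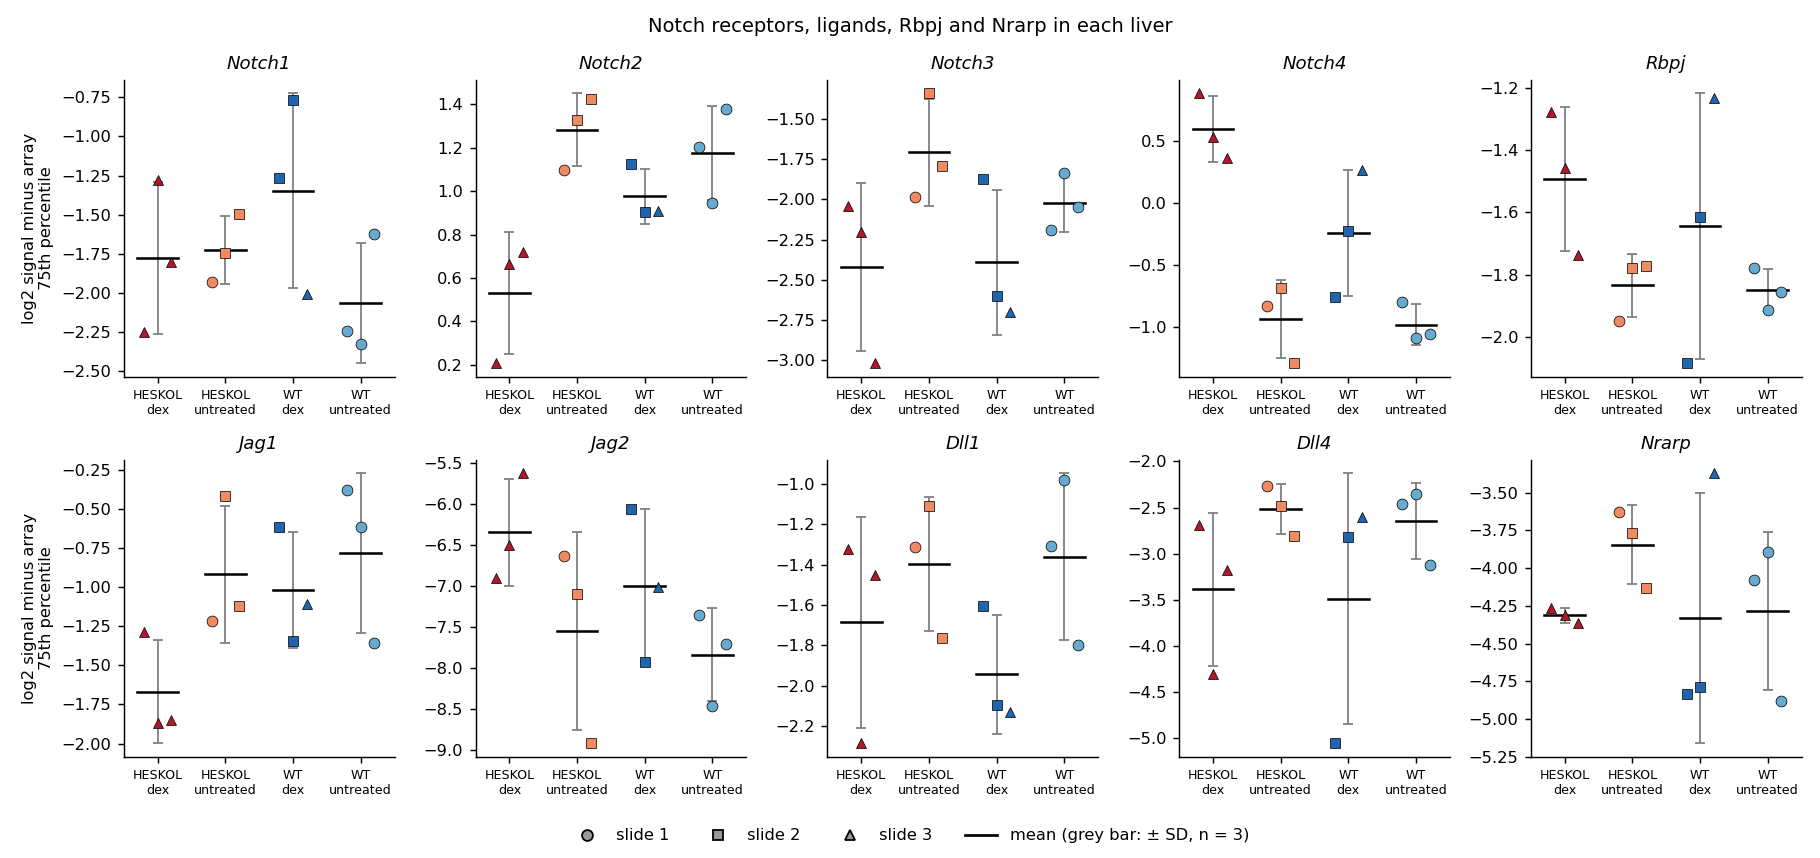
Each point is 1 liver, plotted as its log2 signal relative to the array's 75th percentile, with its slide as the symbol, the group mean as a black line and the SD as a grey bar (n = 3). The vertical range differs between genes. Notch4 in treated HESKOL livers runs from 0.37 to 0.89, above all 9 other livers, and Notch2 there runs from 0.21 to 0.72, below all 9 others.

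In whole liver RNA, fewer cells of a type and less RNA per cell cannot be told apart. All 15 endothelial markers listed were well above background on all 12 arrays. Their summed level, in multiples of the 75th percentile, was 62.9 to 76.9 in treated HESKOL livers, against 59.7 to 63.9 in untreated HESKOL livers. It was 61.9 to 66.4 in treated wild-type livers, against 47.9 to 65.5 in untreated wild-type livers. Both pairs of ranges overlapped. Their median log2 signal was 1.25 to 1.36 in treated HESKOL livers, against 1.36 to 1.46 in untreated HESKOL livers, so it leaned the other way from the sum. In wild-type livers the median was 1.19 to 1.51 after dexamethasone, against 1.09 to 1.31 without it.

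Of the 15 endothelial genes, 1 passed upwards and 1 downwards in HESKOL liver, beside 7.83% of all genes in either direction. In wild-type liver 1 passed upwards, beside 0.198%. Averaged over genotypes 2 passed upwards and 1 downwards, beside 11.8%. Lyve1, a hyaluronan receptor of sinusoidal and lymphatic endothelium, rose by 2.62 in HESKOL liver (limma adjusted p = 0.0025) and by 2.22 in wild-type liver (limma adjusted p = 0.031). On the third slide Lyve1 was at 3.93, 4.12 and 3.48 in the treated HESKOL livers and at 3.54 in treated wild-type liver 3. On the second slide it was at 2.32 and 2.40 in treated wild-type livers 1 and 2, against 0.92, 0.29 and 0.39 in untreated wild-type livers. Kdr, a receptor for vascular endothelial growth factor, fell by 1.56 in HESKOL liver (limma adjusted p = 0.026). On the third slide Kdr was at 0.05, 0.14 and 0.20 in the treated HESKOL livers and at 0.06 in treated wild-type liver 3, below every liver of the other slides. Averaged over genotypes Robo4, a guidance receptor of endothelium, rose by 0.59 (limma adjusted p = 0.044). The other 12 endothelial genes did not pass in any comparison, among them the bright Clec4g, Flt1 and Stab1, whose changes in HESKOL liver were -0.78, 0.75 and 0.43. The part of the endothelium in the Notch4 result was not tested.

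Notch2, the receptor that pairs with Jag1 in bile duct formation, had log2 signals of 0.21, 0.67 and 0.72 in treated HESKOL livers, against 1.10, 1.33 and 1.42 in untreated HESKOL livers. The treated HESKOL livers were the lowest 3 of the study. The mean difference of -0.75 (SE 0.21, 95% interval -1.22 to -0.29) missed the threshold (limma adjusted p = 0.054). It passed when treated wild-type liver 1 was left out (limma adjusted p = 0.034). In wild-type liver Notch2 was at 1.12, 0.90 and 0.91 after dexamethasone, against 1.20, 0.94 and 1.38 without it, and the difference was -0.20 (SE 0.21, limma adjusted p = 0.77). The difference between the genotypes' responses was -0.55 (SE 0.30, limma adjusted p = 0.80).

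The other Notch2 probes gave a similar picture in HESKOL liver and another one in wild-type liver. The second probe read -3.62, -3.77 and -3.60 in treated HESKOL livers, against -3.17, -3.02 and -3.49 in untreated ones. The dimmest read -5.35, -5.29 and -5.47 in treated HESKOL livers, against -4.88, -4.73 and -4.91 in untreated ones. On each of the 3 probes the treated HESKOL livers were below all 9 other livers. The changes by probe in HESKOL liver were -0.75 for the brightest, -0.44 for the second and -0.53 for the dimmest, and none of them passed when every probe was tested separately. In wild-type liver the same probes gave -0.20, 0.33 and 0.15, so the sign of the small wild-type difference depends on the probe. Over all genes, 9.2% had all treated HESKOL livers above or below all 9 others, and among the 10 Notch genes these were Notch2 and Notch4.

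**Figure D2:**
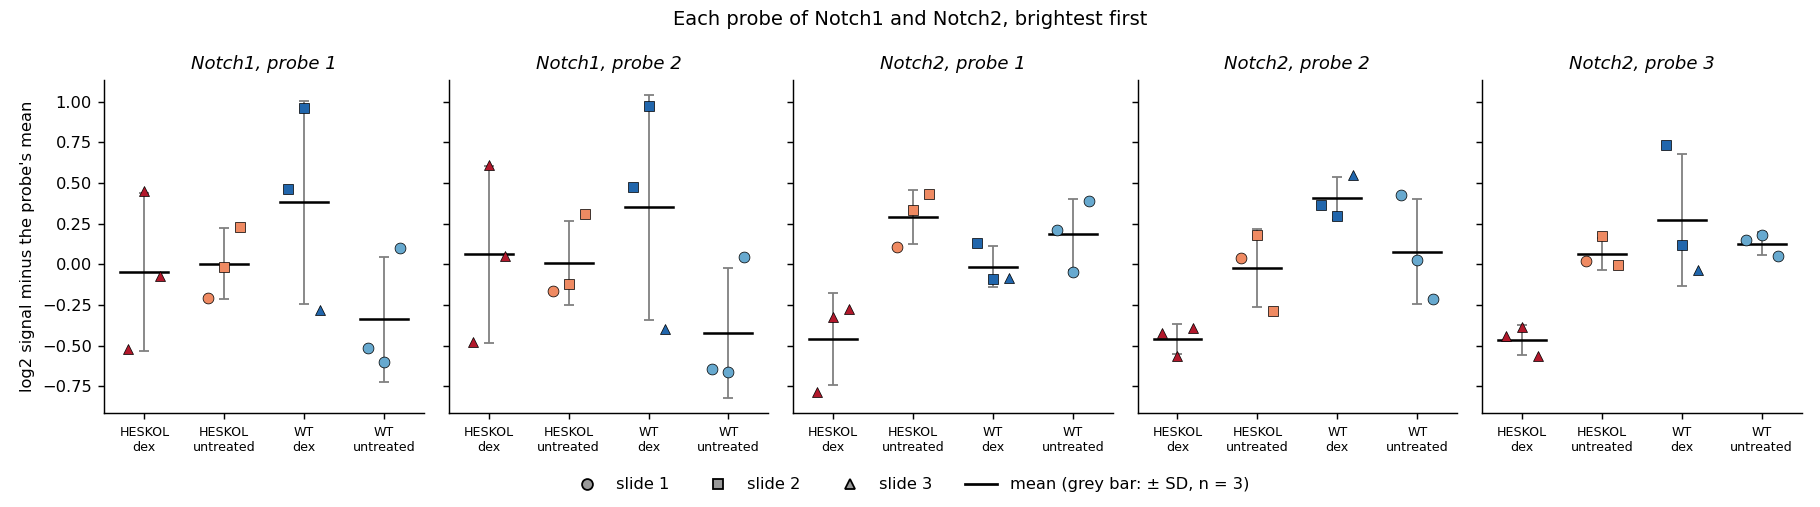
Each point is 1 liver, plotted as its log2 signal minus the mean of that probe over the 12 arrays, for the 2 probes of Notch1 and the 3 probes of Notch2, with symbols, lines and bars as for the plot of all 10 genes. The 2 Notch1 probes place the livers alike, and all 3 Notch2 probes put the treated HESKOL livers lowest.

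**Figure D3:**
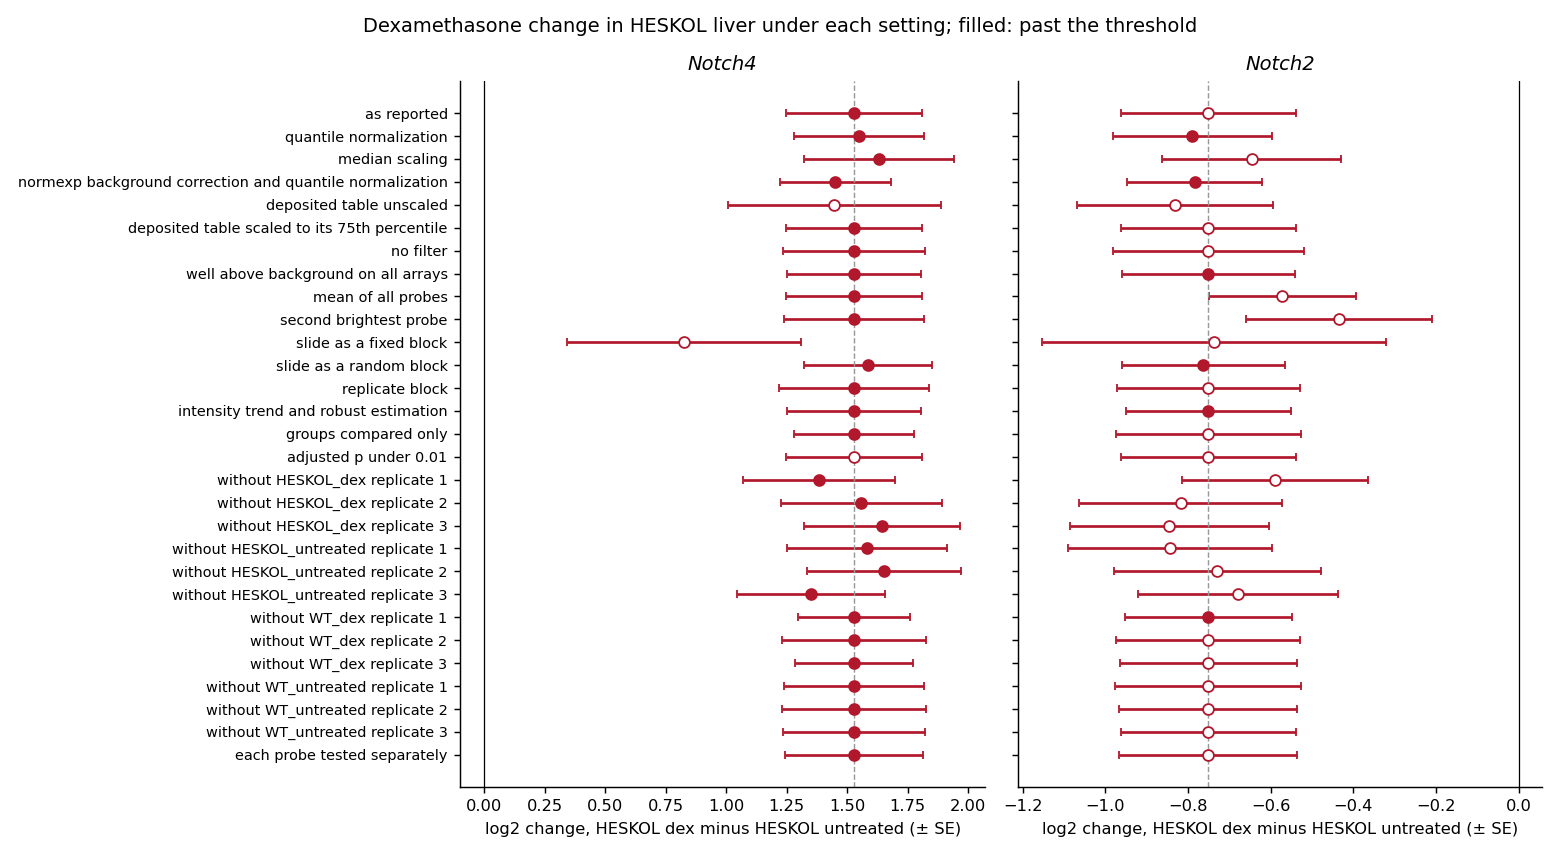
Points are the dexamethasone change in HESKOL liver under each way of processing the arrays, bars are ± 1 SE, the dashed line is the value as reported, and filled points passed. Notch4 stays above 0 in all settings and falls to 0.83 with slide as a fixed block, and Notch2 stays below 0, filled in 6 settings.

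Notch1, a receptor used widely in development and in endothelium, differed between livers of 1 group more than between groups. It was at -2.25, -1.28 and -1.80 in treated HESKOL livers, against -1.93, -1.74 and -1.498 in untreated HESKOL livers. In wild-type livers it was at -1.26, -0.77 and -2.01 after dexamethasone, against -2.24, -2.33 and -1.63 without it. The groups overlapped in both genotypes. The change was -0.05 in HESKOL liver (95% interval -0.82 to 0.72) and 0.72 in wild-type liver (95% interval -0.05 to 1.49, limma adjusted p = 0.46). The neighbouring probe gave 0.05 in HESKOL liver and 0.77 in wild-type liver.

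Notch1 and Dll1 were each printed at 10 spots on every array. The SD between the 10 Notch1 spots of an array was 0.051 (median over arrays), while the pooled SD between mice of a group was 0.45. For Dll1 these were 0.088 and 0.40. The spread between spots covers 1 labelled RNA on 1 array, while that between mice also holds labelling, hybridisation and slide.

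Notch3, the receptor of mural cells, was at -2.04, -2.20 and -3.02 in treated HESKOL livers, against -1.99, -1.34 and -1.79 in untreated HESKOL livers. The groups did not overlap, although the gap between them was small. The difference of -0.71 (SE 0.31, limma adjusted p = 0.19) did not pass. In wild-type livers Notch3 was at -1.87, -2.60 and -2.70 after dexamethasone, against -2.19, -1.84 and -2.05 without it, a difference of -0.37 (SE 0.31, limma adjusted p = 0.69). Averaged over genotypes the difference was -0.54 (limma adjusted p = 0.14), and it was -0.67 (limma adjusted p = 0.042) without treated wild-type liver 1. All 12 stellate and mural markers were well above background throughout, with summed levels of 77.0 to 103 in treated HESKOL livers, against 51.9 to 80.5 in untreated ones. Their median log2 signal was -0.29 to 0.31 in treated HESKOL livers, against -0.13 to 0.60 in untreated ones. Among them Ngfr, a neurotrophin receptor of stellate cells, fell by 2.02 in HESKOL liver (limma adjusted p = 0.038), and no other passed. The part of mural cells in the Notch3 values was not tested.

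Among the ligands, Jag1 was at -1.29, -1.87 and -1.85 in treated HESKOL livers, against -1.22, -0.42 and -1.12 in untreated HESKOL livers. The groups did not overlap, although treated liver 1 lay close to untreated liver 1. The difference of -0.75 (SE 0.33, 95% interval -1.48 to -0.03) did not pass (limma adjusted p = 0.19). In wild-type livers Jag1 was at -0.61, -1.34 and -1.11 after dexamethasone, against -0.38, -0.61 and -1.36 without it, and the groups overlapped (-0.24, SE 0.33, limma adjusted p = 0.83). Another Jag1 probe was well above background on only 2 of 12 arrays and was not tested.

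Among bile duct markers, Cftr did not stand well above background anywhere, and 8 of the 10 listed genes were well above it on all 12. Their summed level was 6.85 to 21.4 in treated HESKOL livers, against 20.4 to 95.5 in untreated HESKOL livers, and it was 13.8 to 54.6 in treated wild-type livers, against 15.5 to 72.8 in untreated wild-type livers. Most of this sum was Spp1, osteopontin, which other cells also make. Its log2 signal was 4.30, 3.73 and 2.25 in treated HESKOL livers, against 4.19, 6.54 and 4.83 in untreated HESKOL livers, and these overlapped. The median log2 signal of the list ran from -2.89 to -1.99 in treated HESKOL livers, against -2.35 to -2.32 in untreated ones, also with overlap. The part of bile duct cells in the Jag1 and Notch2 values was not tested.

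Jag2 was at the edge of detection and entered the test only through the treated HESKOL livers. It was well above background in all 3 treated HESKOL livers and 2 of 3 untreated HESKOL livers, and in 1 of 3 treated and 0 of 3 untreated wild-type livers. Its log2 signal was -6.91, -6.50 and -5.63 in treated HESKOL livers, against -6.63, -7.10 and -8.91 in untreated ones. In wild-type livers it was -6.06, -7.92 and -7.01 after dexamethasone, against -7.35, -8.46 and -7.70 without it. The dimmest signals that counted as well above background lay between -7.55 and -6.06, depending on the array. The groups overlapped in both genotypes. No change is read from these values, since untreated HESKOL liver 3 and all untreated wild-type livers were not well above background.

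Dll1, a ligand of the Delta family, was at -1.32, -2.29 and -1.45 in treated HESKOL livers, against -1.31, -1.11 and -1.76 in untreated HESKOL livers. Treated wild-type livers had -1.60, -2.10 and -2.13, against -1.30, -0.98 and -1.80 in untreated ones. The groups overlapped in both genotypes, and the changes were -0.29 in HESKOL liver (95% interval -0.99 to 0.41) and -0.58 in wild-type liver (95% interval -1.28 to 0.12).

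Dll4, the Delta ligand of arterial and sprouting endothelium, varied most of the 9 genes that were well above background on all 12 arrays, with an SD of 0.84 over the arrays. This rank rested on treated wild-type liver 1, without which the SD of Dll4 was 0.57 and that of Notch4 0.75. It was at -2.69, -4.30 and -3.17 in treated HESKOL livers, against -2.27, -2.48 and -2.80 in untreated HESKOL livers. In wild-type livers it was at -5.06, -2.82 and -2.60 after dexamethasone, against -2.46, -2.36 and -3.12 without it. The lowest value of all was that of treated wild-type liver 1. With this liver the wild-type difference was -0.84 (SE 0.60), and without it -0.06. In HESKOL liver the difference was -0.87 (SE 0.60, limma adjusted p = 0.40).

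Rbpj, the nuclear partner of the cleaved receptors, varied least, with an SD of 0.26 over the arrays. It was at -1.28, -1.46 and -1.74 in treated HESKOL livers, against -1.95, -1.78 and -1.77 in untreated HESKOL livers. These did not overlap, but the difference of 0.34 (95% interval -0.17 to 0.86) did not pass. The treated wild-type livers had -2.08, -1.61 and -1.23, against -1.78, -1.91 and -1.86 in untreated ones, and the groups overlapped (0.21, 95% interval -0.31 to 0.72).

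Nrarp, the feedback regulator, was at -4.26, -4.31 and -4.36 in treated HESKOL livers, against -3.63, -3.77 and -4.13 in untreated HESKOL livers. The groups did not overlap, and the difference was -0.47 (SE 0.39, limma adjusted p = 0.50). In wild-type livers it was at -4.83, -4.79 and -3.37 after dexamethasone, against -4.08, -3.89 and -4.88 without it, a difference of -0.05 (95% interval -0.89 to 0.80).

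Counted over the 10 genes, 1 passed for dexamethasone in HESKOL liver and 6 had groups that did not overlap, 2 of them higher. Among all genes 34.3% had no overlap in this comparison. In wild-type liver 0 passed, and only Notch4 had groups apart, beside 12.1% of all genes. The median change of the 10 genes was -0.38 in HESKOL liver and -0.12 in wild-type liver, while the medians of all genes were -0.0025 and -0.020. One of the 10 entered the test only through the livers in which it was brightest, and the members were chosen by name, so these counts describe them and no more.

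**Figure D4:**
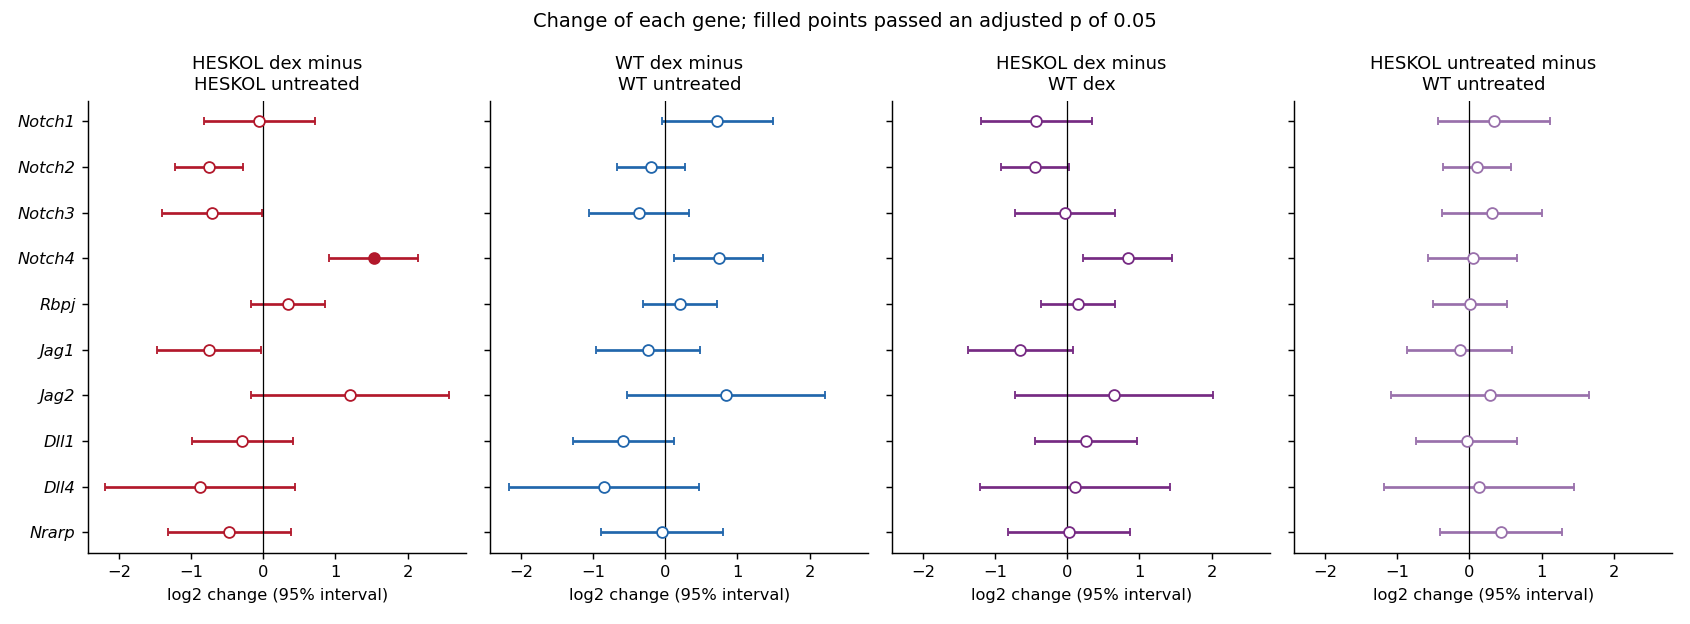
Points are log2 changes between group means for each gene, bars are 95% intervals from limma, and filled points passed an adjusted p of 0.05. Only Notch4 in HESKOL liver is filled, at 1.53, and the intervals of the untreated genotype comparison all include 0.

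Between genotypes, none of the 10 genes passed. After dexamethasone the differences ran from -0.65 for Jag1 to 0.84 for Notch4, and the groups of Notch2 and Notch4 did not overlap. The mean difference of Notch2, HESKOL minus wild-type, was -0.45, -0.86 and -0.74 for the brightest, second and dimmest probe (limma adjusted p = 0.36, 0.093 and 0.15 with every probe tested separately). Of all genes, 1.14% passed in this comparison and 18.3% had groups apart. Within the third slide, the only one with treated livers of both genotypes, the Notch2 difference on the brightest probe was -0.37 and the Notch4 difference 0.33, against 1 wild-type liver.

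Without treatment the genotype differences of the 10 genes ran from -0.13 for Jag1 to 0.44 for Nrarp. All 95% intervals held 0, the narrowest being that of Notch2 (-0.36 to 0.57). Across the array 0 genes, or 0%, passed this limma comparison, and 296 had an unadjusted p under 0.05. Averaged over treatments 0 of the 10 passed, beside 0.241% of all genes. With the brightest probe of each gene, the smallest unadjusted limma p was that of Notch4 (0.048, difference 0.44). The second and dimmest Notch2 probes had smaller ones, 0.0097 and 0.025, with differences of -0.48 and -0.40. Neither passed with every probe tested separately (limma adjusted p = 0.33 and 0.44). For the difference of the dexamethasone responses 0 of the 10 passed, beside 0.016% of all genes. Its intervals were wide, from -1.86 to 0.32 for Notch1 and from -1.89 to 1.83 for Dll4.

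The rest of the pathway was read from 74 further genes, of which 73 had a probe and 64 were tested. In HESKOL liver 2 of the 64 rose and 3 fell with dexamethasone, beside 7.83% of all genes in either direction. Averaged over genotypes 2 rose and 4 fell, beside 11.8%. In every other comparison 0 passed. The number in HESKOL liver moved with single livers, between 0 and 4 in each direction when 1 liver was left out, and to 4 higher and 4 lower without treated wild-type liver 1. With slide as a fixed block 0 passed.

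All 3 genes that fell in HESKOL liver were Hes and Hey genes, a family that includes repressors switched on by Notch. Whether each of the 3 answers to Notch in these livers was not tested. Of 9 listed, 6 were tested. Heyl was at -3.26, -4.22 and -4.57 in treated HESKOL livers, against -2.05, -1.61 and -1.49 in untreated HESKOL livers, and fell by 2.30 (SE 0.44, limma adjusted p = 0.013). Hes6 had 1.80, 1.73 and 2.64 in treated HESKOL livers, against 4.17, 3.68 and 4.61 in untreated ones, and fell by 2.09 (SE 0.43, limma adjusted p = 0.017). Hey1 had -2.06, -2.62 and -3.63 in treated HESKOL livers, against -1.48, -1.01 and -1.44 in untreated ones, and fell by 1.46 (SE 0.40, limma adjusted p = 0.049). Groups were apart for all 3, as for 34.3% of all genes.

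In wild-type liver Heyl, Hes6 and Hey1 differed by -0.76, -1.14 and -0.76, and none passed. Their groups did not overlap, as for 12.1% of all genes. For Heyl the highest treated liver was at -2.59, against -2.54 in the lowest untreated one. For Hey1 these were -1.92 and -1.91, and treated wild-type liver 1 had the lowest Hey1 of its group (-3.20). Treated wild-type liver 3, on the slide of the treated HESKOL livers, had the lowest Heyl (-4.16) and Hes6 (2.43) of its group. Averaged over genotypes the 3 genes fell by 1.53, 1.62 and 1.11 (limma adjusted p = 0.013, 0.0095 and 0.031). Hes1, Hes2 and Hes5 did not pass, with -0.67, -0.84 and 0.11 in HESKOL liver. Hes6 is unlike its relatives, being known to oppose Hes1. The median change of the 6 genes was -1.15 in HESKOL liver and -0.72 in wild-type liver. With slide as a fixed block the HESKOL changes of Heyl, Hes6 and Hey1 were -0.93, -0.54 and -1.73, and none passed.

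Tle1, a Groucho corepressor that Hes proteins recruit, rose. It was at 4.21, 4.30 and 3.87 in treated HESKOL livers, against 2.57, 2.21 and 3.11 in untreated HESKOL livers, a 2.83-fold change (SE 0.37 on the log2 scale, limma adjusted p = 0.034). Furin, the protease that first cuts Notch receptors on their way to the surface and cuts many other proteins too, had 5.58, 5.24 and 5.34 in treated HESKOL livers, against 4.57, 4.25 and 4.53 in untreated ones, and rose by 0.94 (SE 0.23, limma adjusted p = 0.034). In wild-type liver the changes of Tle1 and Furin were 0.88 and 0.28, and neither passed. Gata3, a Notch target in lymphocytes, fell by 0.97 averaged over genotypes (limma adjusted p = 0.021), and its change in HESKOL liver was -1.07 (limma adjusted p = 0.059).

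The remaining pathway lists held no gene that passed. The glycosyltransferases, which tune the receptors' choice of ligand, were all 5 tested, with Lfng at 0.17 in HESKOL liver and -0.86 in wild-type liver and Mfng at -0.21 in HESKOL liver and -0.37 in wild-type liver. Among 10 cleavage genes, Furin apart, the γ-secretase subunit Aph1b changed by 0.74 in HESKOL liver (limma adjusted p = 0.061). Of 13 tested genes of endocytosis and turnover, Dtx1, a ubiquitin ligase, differed by -0.89 in HESKOL liver and -1.03 in wild-type liver. The 7 tested coactivators included Maml1 at 0.22 in HESKOL liver and 0.43 in wild-type liver, and the 15 corepressors, Tle1 apart, included Hdac1 at -0.49 in HESKOL liver and -0.13 in wild-type liver. Of 5 other ligands only Dlk2 was bright enough to be tested (-0.20 in HESKOL liver and 0.25 in wild-type liver), and Dll3, Dner and Cntn1 did not stand well above background anywhere. Among 7 tested other targets, Gata3 apart, Efnb2, an arterial ephrin, differed by -0.69 in HESKOL liver and 0.15 in wild-type liver.

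**Figure D5:**
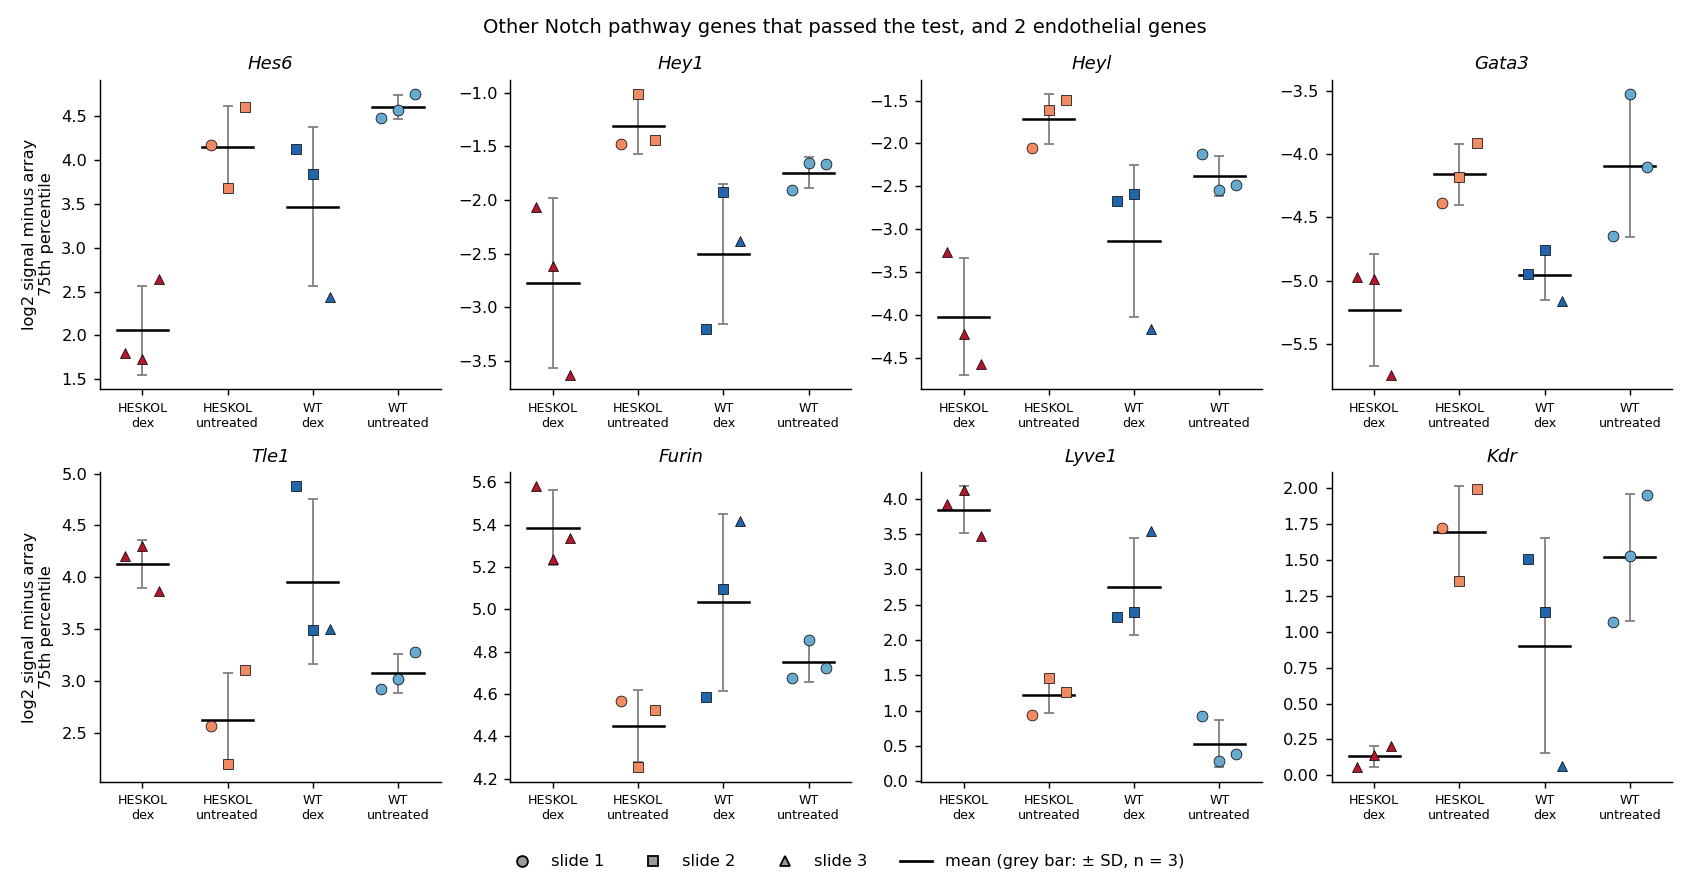
Each point is 1 liver (log2 signal minus the array's 75th percentile; symbols, lines and bars as for the plot of all 10 genes) for the 6 other Notch pathway genes that passed a test and for Lyve1 and Kdr of the endothelial list. Hes6, Hey1, Heyl, Gata3 and Kdr are lower, and Tle1, Furin and Lyve1 higher, in treated than in untreated HESKOL livers, without overlap.

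Markers of blood-borne and resident immune cells were read beside these genes. The summed level of 12 lymphocyte markers was 0.70 to 1.26 in treated HESKOL livers, against 1.89 to 3.07 in untreated HESKOL livers, and it was 0.58 to 2.44 in treated wild-type livers, against 1.58 to 2.15 in untreated wild-type livers. The wild-type ranges overlapped only through treated liver 1 at 2.44, with the other treated wild-type livers at 0.87 and 0.58. Of these 12, 0 had a higher mean after dexamethasone in either genotype (median change -1.08 in HESKOL and -0.70 in wild-type liver). Only Cd79a of B cells passed, downwards, in HESKOL liver. Averaged over genotypes Cd79a and Ms4a1 passed downwards, and in wild-type liver 0 passed. Of all genes, 7.83% and 11.8% passed in these comparisons. The 10 Kupffer cell markers summed to 73.7 to 186 in treated HESKOL livers, against 141 to 285 in untreated ones. They summed to 86.0 to 198 in treated wild-type livers, against 122 to 204 in untreated ones. Both pairs of ranges overlapped, in wild-type liver only through treated liver 1 at 198. The other treated wild-type livers were at 86.0 and 92.7. All 10 had a lower mean in treated HESKOL livers (median change -0.88), and Adgre1 was the only one that passed. In wild-type liver 3 of the 10 had a higher mean (median change -0.27), and 0 passed. Of 10 measured hepatocyte markers, Cps1 rose and Ttr fell in HESKOL liver. The part of these cells in the values of Gata3, Hes6 and the Notch genes was not tested.

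Genes with the most similar profile over the 12 arrays were sought among 13233 named genes by the root mean square difference of mean-centred log2 signals. Nearest to Notch4 were Gdpd1 (0.17), Fkbp14 (0.21) and Tmem62 (0.23), where the median gene lay at 0.81. Gdpd1 was at -0.09, -0.38 and -0.86 in treated HESKOL livers, against -2.09, -2.01 and -2.30 in untreated ones, and at -0.82 in treated wild-type liver 3, the highest of its group as for Notch4. Nearest to Jag1 were Hapln4 (0.16), Nup107 (0.19) and Tpm1 (0.20), with the median gene at 0.64. Nearest to Dll4 were Csrnp2 (0.29), Zfp30 (0.33) and Vhl (0.35), with the median gene at 0.92, and all 3 had their lowest value in treated wild-type liver 1. Since these genes were picked for likeness over the same 12 arrays, shared high and low livers follow from the choice.

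Promoters were read because dexamethasone acts through the glucocorticoid receptor and because Notch4 was the gene that passed. RefSeq windows of 250 bases before the start (GRCm38.p6) were found for all 10 genes, 12 windows in all. The inner bases of a pair of glucocorticoid receptor half-sites were searched as ACANNNTGT on either strand, which does not cover the full half-sites. This pattern was present in 1 of the 12, that of Notch4, and in 5.84% of 32851 windows of the same length. The core motif of Rbpj, GTGGGAA on either strand, was in 0 of the 12 windows and in 5.42% of all. The Notch4 window lies at chr17:34564045-34564294 on the plus strand, and the capitals mark the match to ACANNNTGT, which begins 12 bases before the start. A match is a description of letters and was not tested as a binding site.
Notch4 window: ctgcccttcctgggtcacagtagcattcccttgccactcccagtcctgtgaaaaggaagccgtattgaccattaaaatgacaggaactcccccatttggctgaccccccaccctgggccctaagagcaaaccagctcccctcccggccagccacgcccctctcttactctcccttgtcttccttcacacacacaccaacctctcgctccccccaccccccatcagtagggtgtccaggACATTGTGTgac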

How the data were processed

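The labels gave 4 groups of 3 separate mice. Per the file headers, the authors' array intensity values came from version 9.5.3.1 of Agilent's Feature Extraction. The submitters' processing notes give it as 9.5. The deposited processed signal is a linear intensity with background already removed. The deposited series table holds the same intensity values on a linear scale, unscaled and not centred (ratio to the processed signal 1 on every array), with column medians from 53.7 to 112.

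From these, log2 values minus each array's 75th percentile were computed here. Outlier spots and controls were left out, spots of a probe were averaged, and the probe with the highest mean stood for its gene. Genes were named through accession, symbol or synonym in the RefSeq table. A gene was tested where 1 group or more had it well above background in all 3 livers. Group means were fitted with limma 3.58.1 (lmFit, eBayes) in R 4.3.3 over all 12 arrays with 7 contrasts, adjusted by Benjamini-Hochberg over 18708 genes. The script was tested on simulated data. Alternatives covered scaling, background, filter, probe, slide, replicate number, spread, threshold and left-out arrays, and each probe tested separately was added after seeing the data. Arrays per group limit the precision.

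Named were all 10 members, the other listed Notch genes that passed, up to 3 per list with the smallest p, the 3 nearest profiles for 3 members, and Hes1. Markers were named from the 4 brightest per list and those that passed, with Cftr beside them. Not all of these brightest or passing markers are named. Lists covered 8 groups of Notch genes, 6 of cell markers, immediate early genes and glucocorticoid targets. The members and lists were chosen with earlier results of these data known. The result of 1 listed marker gene is not reported here.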

Additional observations from a re-analysis of the deposited data

How the results depend on the processing

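Of the 10 genes, 1 passed for dexamethasone in HESKOL liver and 1 averaged over genotypes. The first count was 2 with quantile normalization, with normexp and quantile normalization, with the filter on all arrays, with slide as a random block and with an intensity trend, where Notch2 joined Notch4. It was 0 for the unscaled deposited table, for slide as a fixed block and at an adjusted p under 0.01. The averaged count was 2 with both quantile settings, the random block and the trend, and 0 with the fixed block. On the unscaled deposited table it was 1, and that gene was Notch2, not Notch4. Leaving out 1 array gave 1 to 2 and 1 to 3, with the highest counts, 2 and 3, without treated wild-type liver 1 (Notch2, and Notch2 and Notch3, in addition). Notch4 passed both comparisons in all 12 such fits.

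On the unscaled table the median change of all genes was -0.35 in wild-type and -0.08 in HESKOL liver, against -0.020 and -0.0025 as reported. With median scaling it was 0.10 in HESKOL liver. Over all genes, leaving out 1 array moved the number that passed from 1465 to between 366 and 2798 in HESKOL liver, from 2206 to between 1075 and 4318 averaged over genotypes, and from 37 to between 11 and 1123 in wild-type liver. The random slide block gave 2394 in HESKOL liver and no filter 952. Of the genes that passed averaged over genotypes, 435 of 2504 were higher without scaling, and 991 of 2206 with it. With the replicate block the counts stayed 1 and 1. Same-numbered arrays correlated between -0.40 and 0.62, over 0.1 in 6 of 18 pairs, so the numbers do not pair the mice. The 2 values that passed kept their sign in all 55 recomputations and lost the threshold in 5. Values that had not passed changed sign in 93 of 1861 and passed in 13. The cause was not tested. Jag2, near background, is the gene most limited by signal.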
